A study of Mus musculus with 10 samples.

Results

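The 30 genes described here are a set of erythroid genes: the adult globins and their chaperone, the transcription factors of red cell precursors with the erythropoietin receptor, and genes for heme synthesis, the membrane skeleton, blood group antigens and red cell enzymes. They were chosen by name from known function, and 29 of the 30 are among the 13809 genes of the deposited table. Ahsp, the alpha globin chaperone, was not analysed here. All 29 reached a value of 10 in at least 2 libraries and were tested. Hbb-b2 held the same values as Hbb-bt in every library, so 28 genes have values of their own.

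Red cell precursors mature in the bone marrow on erythroblastic islands, where they surround a central macrophage that supports them and engulfs the nuclei they expel. GATA1, TAL1 and KLF1 switch on the globin, heme and membrane genes as the precursors mature, under the signal of erythropoietin. Marrow macrophages also take up aged red cells and recycle the iron of their hemoglobin.

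Bone marrow of C57BL/6 mice aged 12 weeks was passed unstained over a magnetic column. Cells held back by their own iron content, labelled CD163+, are called resident macrophages. The cells that ran through, labelled CD163-, were grown for 6 days by the protocol (7 days by the sample names) in medium with 20% supernatant of L929 cells, a source of the macrophage growth factor M-CSF, and are called bone marrow derived macrophages (BMDM). Each kind was left untreated or given 1 µg/ml of the bacterial lipopolysaccharide LPS for 4 hours, with 3 libraries for untreated resident, 3 for LPS-treated resident, 2 for untreated BMDM and 2 for LPS-treated BMDM cells. No group carries a genetic change. The labels do not say whether libraries of a group came from separate mice, so a p-value here speaks to the spread among the libraries at hand. That spread may be technical, though not alone between replicate 1 and the other replicates of a resident group. There only replicate 1 held Y-linked transcripts, so these libraries did not all come from the same mice.

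Values are normalised read numbers: the reads of a gene divided by 1 factor for the library, with a floor of 1. The floor holds genes without reads, and also genes with 1 read in libraries where 1 read was worth under 1. Both untreated BMDM libraries are of that kind (0.912 and 0.914). One unit is close to 1 read, since 1 read was worth 0.892 to 1.35 across the 10 libraries, and the libraries held 27.1 to 37.7 M reads on genes. Macrophage markers were read in both kinds of cell, and 11 of 11 reached a value of 10 in every library. Their summed values were 169228 to 277055 in resident and 135975 to 165737 in BMDM libraries. Single markers differed, with 7 higher and 4 lower in untreated resident than in untreated BMDM cells (log2 differences of -1.82 to 8.46). Cd163 stood at 4131 to 10740 in resident and at 14.4 to 53.9 in BMDM libraries. The resident libraries also held markers of other marrow cells: the sum of 10 neutrophil genes was 204872 to 371710 there against 1396 to 1611 in BMDM libraries, and that of 9 megakaryocyte and platelet genes 14812 to 51200 against 3286 to 4349. None of the neutrophil, megakaryocyte, B lineage, T and NK, eosinophil or progenitor markers was at the floor in every library of a resident group, whereas Ly6g, Igll1 and Mecom were at the floor in all 4 BMDM libraries. Replicate 1 of both resident groups stood apart, as it held transcripts of the Y-linked gene Ddx3y (1856 and 1975) where the other 8 libraries were at the floor. When both were left out, the calls that changed were those of Tal1 between origins, in both treatments, and of Slc25a37 in LPS-treated resident cells, each from not called to higher.

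Most erythroid genes were higher in the magnetically retained cells than in cultured macrophages, where many were low or at the floor. Slc25a37, Tal1, Car2, Bpgm and Tmcc2 were clearly read in cultured macrophages too. In untreated cells 28 of 29 members were higher in resident libraries and none was lower, where 39.2% of all tested genes were higher and 32.6% lower (limma, adjusted p under 0.05 over all genes). With LPS 27 were higher and 1, Slc25a37, was lower, against 36.7% and 34.5% of all genes. Many members, among them Hbb-bs, Hbb-bt, Klf1, Alas2, Slc4a1 and Kel, reached the level needed for testing only through the resident libraries. A lower call was hardly open to them, so the counts, medians and p-values between origins rest in part on such genes. That level left out none of the 29, and the called members kept their call when no such level was set. The median log2 difference over the members was 5.19 untreated and 5.36 with LPS, beside 0.08 and 0.03 over all genes tested. With members that were at the floor in BMDM taken at a bound of 3 reads per library, the member medians were 4.75 and 5.31. Together the members other than Hbb-b1 and Hbb-b2 made up 0.160% to 0.236% of the summed values of a resident library. In a BMDM library they made up 0.0111% to 0.0177%. Hbb-b1 and Hbb-b2 were left out of these shares because they may share reads with Hbb-bs and Hbb-bt. In bulk RNA, fewer cells of a type and less RNA per cell cannot be told apart. The summed neutrophil, megakaryocyte, B lineage, eosinophil and progenitor markers were also higher in resident libraries in both treatments. The T and NK sum was higher there only untreated (151 to 367 against 80.3 to 81.3). With LPS it was 264 to 322 in resident and 587 to 627 in BMDM libraries. The part that transcripts of these cells have in the differences was not tested.

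**Figure D1:**
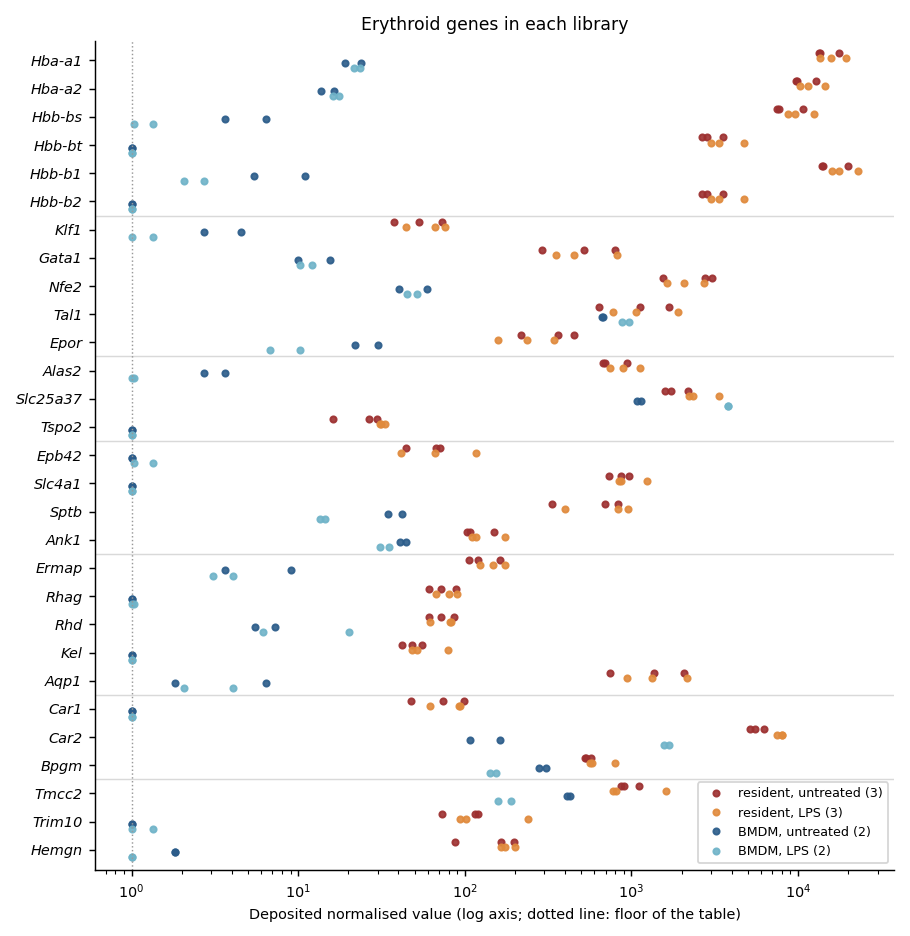
Deposited normalised value (log axis) of each of the 29 erythroid genes in each of the 10 libraries, 1 point per library, coloured by group with the number of libraries in brackets; grey lines part the role groups and the dotted line is the floor of 1. Resident points lie to the right of the BMDM points of the same treatment for every gene except Tal1, whose points overlap, and Slc25a37 with LPS, whose BMDM points at 3777 and 3772 lie beyond the resident ones.

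The globins stood furthest from the cultured macrophages. Hba-a1, an alpha globin gene (chr11:32283511-32284465, plus strand), had values of 13329, 13449 and 17572 in untreated and 19508, 13531 and 15658 in LPS-treated resident libraries. In BMDM it had 19.1 and 23.8 untreated and 23.7 and 21.7 with LPS, so that no BMDM library came near a resident one (log2 difference 9.36 ± 0.17 SE untreated, adjusted p = 1.47e-10, and 9.41 ± 0.17 with LPS, adjusted p = 3.83e-10, limma). Hba-a2, its neighbour and near copy (chr11:32296489-32297298, plus strand), had 9668, 9791 and 12805, then 14472, 10275 and 11451 with LPS, against 13.7 and 16.5 in untreated and 17.5 and 16.3 in LPS-treated BMDM. The alpha genes were therefore read at a low level in every BMDM library, from 12 to 26 reads per gene.

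Among the beta globin genes, Hbb-bs (chr7:103826534-103828096, minus strand) had 7519, 7652 and 10754 in untreated and 12504, 8674 and 9578 in LPS-treated resident libraries. BMDM libraries held 3.65 and 6.40 untreated, a log2 difference of 10.51 ± 0.23 (adjusted p = 3.67e-10, limma), and 1.03 and 1.35 with LPS. The latter rest on 2 reads in all, for a resident to BMDM ratio of 8849 with an exact 95% counting interval of 2449 to 73068. Hbb-bt, the second adult beta gene of this strain (chr7:103812524-103813996, minus strand), had 2824, 2656 and 3549, then 4755, 2987 and 3351 with LPS, and was at the floor in all 4 BMDM libraries. Its resident mean was at least 1099-fold higher untreated and at least 1034-fold higher with LPS, set against 3 reads per library. The columns Hbb-b1 (13856, 14167 and 19818, then 22915, 16065 and 17630 with LPS) and Hbb-b2 carry the names of the beta genes of another mouse haplotype, which RefSeq places on an alternate scaffold of chromosome 7.

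The beta globin columns cannot be resolved into separate genes. Hbb-b1 stood at 1.83 to 1.85 times Hbb-bs in all 6 resident libraries, and Hbb-b2 was identical to Hbb-bt. In BMDM, Hbb-b1 had 5.47 and 11.0 untreated and 2.06 and 2.71 with LPS. In the GENCODE transcripts the coding sequences of Hbb-bs and Hbb-bt are 444 bases long and differ at 1 base, with 416 identical bases in a row, and those of Hba-a1 and Hba-a2 are 429 bases long and also differ at 1 base, with an identical run of 380. Reads from most of the coding sequence therefore do not tell the copies apart. The 41 coding bases around each difference are shown to make this plain, with the differing base in capitals; positions are counted from the first coding base, and the changes are C417T from Hbb-bs to Hbb-bt and C381T from Hba-a1 to Hba-a2.
Hbb-bs, coding bases 397 to 437: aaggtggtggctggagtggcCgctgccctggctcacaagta
Hbb-bt, coding bases 397 to 437: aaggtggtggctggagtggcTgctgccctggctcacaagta
Hba-a1, coding bases 361 to 401: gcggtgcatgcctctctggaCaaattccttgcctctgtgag
Hba-a2, coding bases 361 to 401: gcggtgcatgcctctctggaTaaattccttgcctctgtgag
The beta to alpha ratio depends on which columns are summed. Hbb-bs and Hbb-bt together stood at 0.444 to 0.508 of the alpha genes in the 6 resident libraries, and all 4 beta columns at 1.17 to 1.32.

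In resident cells the erythroid regulators had lower values than Hba-a1, Hba-a2 and Hbb-bs, while untreated Nfe2 overlapped Hbb-bt. Of the 5 regulators, 4 were higher in resident cells than in BMDM in both treatments. Klf1, which encodes the factor that switches on adult beta globin, had 37.5, 53.2 and 73.3 in untreated and 44.3, 66.5 and 76.6 in LPS-treated resident libraries, against 2.73 and 4.57 in untreated BMDM (3.56 ± 0.38, adjusted p = 1.33e-05, limma). With LPS its 2 BMDM libraries held 1 read together, for a ratio of 106 with a counting interval of 18.8 to 4210. Gata1, the X-linked gene of the GATA factor required for red cell and platelet formation, had 290, 800 and 516, then 355, 821 and 453 with LPS, against 10.0 and 15.5 in untreated and 10.3 and 12.2 in LPS-treated BMDM (5.19 ± 0.44 and 5.39 ± 0.44). Replicate 2 was the highest of both resident groups for Gata1 and replicate 1 the lowest.

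Nfe2, which encodes a subunit of the NF-E2 factor of platelet and globin genes, was the most abundant regulator in resident cells, at 1537, 3027 and 2758 untreated and 1639, 2734 and 2065 with LPS. BMDM held 40.1 and 59.4 untreated and 45.2 and 51.5 with LPS (5.55 ± 0.30 and 5.41 ± 0.30, adjusted p = 9.13e-08 and 1.44e-07, limma). Epor, the erythropoietin receptor gene, had 218, 453 and 362, then 159, 342 and 236 with LPS, against 30.1 and 21.9 in untreated and 10.3 and 6.77 in LPS-treated BMDM (3.63 ± 0.38 and 4.65 ± 0.38). Tal1, which encodes a partner of GATA1 that blood stem cells also need, was the exception. It had 643, 1672 and 1131, then 777, 1896 and 1058 with LPS, in resident cells and 671 and 662, then 878 and 960, in BMDM, so the groups overlapped in both treatments (0.68 ± 0.40, adjusted p = 0.146, and 0.34 ± 0.40, adjusted p = 0.462, limma). Replicate 1 held the lowest resident Tal1 value in both treatments. Without both replicate 1 libraries Tal1 was higher in resident cells, by 1.04 ± 0.25 untreated (adjusted p = 0.00401) and 0.62 ± 0.25 with LPS (adjusted p = 0.0445, limma).

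Of the heme and mitochondrial genes, Alas2, which encodes the erythroid enzyme that starts heme synthesis, had 691, 675 and 938 in untreated and 1130, 745 and 889 in LPS-treated resident libraries. It had 2.73 and 3.66 in untreated BMDM (7.51 ± 0.23, adjusted p = 1.95e-09, limma) and 1 read in the 2 LPS-treated ones, for a ratio of 1592 with a counting interval of 286 to 62907. Slc25a37, the gene of mitoferrin 1 that carries iron into mitochondria, behaved otherwise, with 2173, 1720 and 1598, then 3369, 2329 and 2208 with LPS, in resident cells and 1143 and 1080, then 3777 and 3772 with LPS, in BMDM. It was 0.71 ± 0.18 higher in resident cells untreated (adjusted p = 0.00446) and 0.54 ± 0.18 lower with LPS (log2 difference -0.54, adjusted p = 0.0179, limma). The second call was lost without LPS-treated resident replicate 2 (-0.47, adjusted p = 0.0568) or 3 (-0.43, adjusted p = 0.063), or either LPS-treated BMDM library (adjusted p = 0.0774 and 0.0771, limma), and with equal library totals or quantile normalization. Without both replicate 1 libraries it held at -0.73 ± 0.06 (adjusted p = 6.36e-06, limma). Tspo2, the erythroid member of the translocator protein family, had 26.8, 16.1 and 29.5, then 31.4, 31.1 and 33.4 with LPS, and was at the floor in all 4 BMDM libraries, for at least 8.82-fold and 8.94-fold higher resident means.

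The membrane skeleton genes were all higher in resident cells. Slc4a1, the gene of the anion exchanger band 3 that anchors the skeleton, was the most abundant, with 868, 735 and 964 in untreated and 1235, 844 and 862 in LPS-treated resident libraries and no BMDM library above the floor. Its resident mean was at least 312-fold higher untreated and at least 274-fold higher with LPS. Sptb, the beta spectrin gene, had 334, 836 and 697, then 401, 954 and 828 with LPS, against 41.9 and 34.7, then 14.4 and 13.5 (3.89 ± 0.42 and 5.51 ± 0.42). Ank1, the ankyrin gene, had 103, 107 and 151, then 116, 111 and 175, and stood nearest to BMDM of these genes, at 44.7 and 41.1, then 30.8 and 35.2 (1.45 ± 0.25, adjusted p = 0.000464, and 1.96 ± 0.25, adjusted p = 5.72e-05, limma). Epb42, which encodes the skeleton protein 4.2, had 71.3, 44.6 and 67.6, then 116, 66.5 and 41.2 with LPS. It was at the floor in untreated BMDM, at least 22.4-fold below the resident mean, and at 2 reads in all in LPS-treated BMDM, for a ratio of 64.9 with a counting interval of 17.8 to 539.

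All 5 genes of surface antigens and channels were higher in resident cells as well. Aqp1, the gene of the aquaporin 1 water channel, was the highest of them at 739, 2054 and 1359, then 937, 2145 and 1335 with LPS, against 1.82 and 6.40, then 2.06 and 4.06, in BMDM (8.12 ± 0.52 and 8.47 ± 0.52, adjusted p = 3.3e-07 and 2.89e-07, limma). Ermap, which carries the Scianna blood group, had 106, 121 and 163, then 147, 123 and 174, against 9.12 and 3.66, then 3.08 and 4.06. Rhag, the gene of the Rh associated glycoprotein, had 60.6, 72.2 and 88.6, then 80.4, 67.6 and 90.3 with LPS. It was at the floor in untreated BMDM, at least 27.0-fold below the resident mean, and held 1 read in the LPS-treated BMDM libraries. The Rh antigen gene Rhd had 72.2, 60.8 and 85.7, then 81.3, 62.2 and 82.4, against 7.29 and 5.48, then 6.17 and 20.3 (3.32 ± 0.41 and 2.61 ± 0.41). Kel, the Kell antigen gene, was the lowest at 48.2, 41.8 and 55.2, then 79.4, 48.3 and 52.0, and was at the floor in all BMDM libraries, for at least 17.7-fold and 16.8-fold higher resident means.

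The enzymes split into genes with and without a BMDM level. Car2, the carbonic anhydrase 2 gene, had 6211, 5523 and 5162 in untreated and 7956, 7452 and 8021 in LPS-treated resident libraries, and 108 and 163, then 1670 and 1559, in BMDM. The difference was 5.40 ± 0.15 untreated (adjusted p = 9.96e-10) and 2.27 ± 0.15 with LPS (adjusted p = 4.47e-07, limma). Its neighbour on chromosome 3, Car1, the carbonic anhydrase 1 gene that marks early erythroid cells, had 47.3, 74.1 and 99.1, then 61.9, 92.3 and 93.2, and was at the floor in BMDM, for at least 26.8-fold and 23.1-fold higher resident means. Bpgm, whose enzyme makes the bisphosphoglycerate that lowers the oxygen affinity of hemoglobin, had 534, 528 and 572, then 802, 565 and 579, against 278 and 307, then 154 and 142 (0.90 ± 0.15, adjusted p = 0.000393, and 2.10 ± 0.15, adjusted p = 9.04e-07, limma).

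Of the last 3 members, Tmcc2, which encodes a coiled-coil transmembrane protein, had 1107, 864 and 903, then 1604, 811 and 776 with LPS, against 428 and 412, then 158 and 190, in BMDM (1.18 ± 0.27 and 2.53 ± 0.27). Trim10, a gene needed for terminal erythroid differentiation, had 116, 73.1 and 120, then 240, 93.4 and 101. It was at the floor in untreated BMDM, at least 37.6-fold below the resident mean, and held 1 read with LPS. Hemgn, which encodes the nuclear protein hemogen, had 87.4, 164 and 197, then 164, 175 and 201, against 1.82 and 1.83 in untreated BMDM (5.66 ± 0.33) and the floor with LPS, at least 50.4-fold below the resident mean. In all, 9 of the 29 members were at the floor in both untreated BMDM libraries and 7 in both LPS-treated ones.

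**Figure D2:**
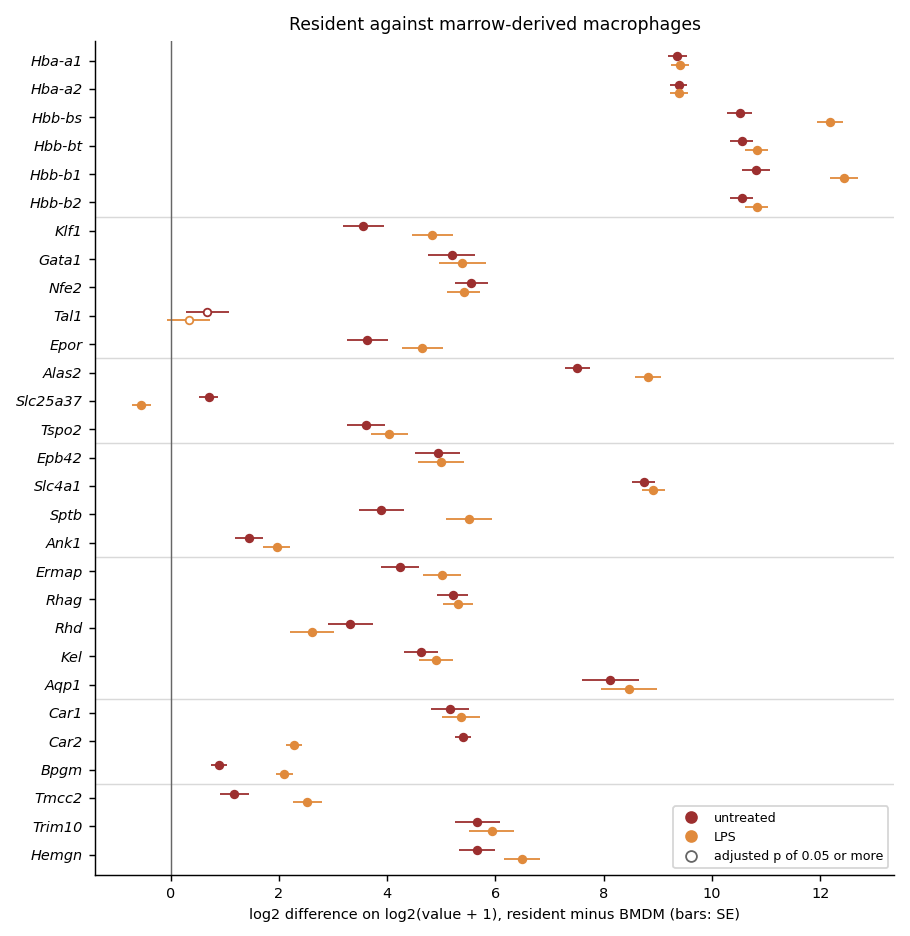
Fitted log2 difference, resident minus BMDM, of each erythroid gene on the log2(value + 1) scale, untreated and with LPS, with bars for the standard error; filled points passed an adjusted p of 0.05 (limma). Tal1 did not pass in either treatment and Slc25a37 lies at 0.71 untreated and -0.54 with LPS; for members at the floor in BMDM the plotted value depends on the added 1.

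Levels of different genes can be compared per length, taking the value per kilobase of merged annotated exons. On that scale the untreated resident order was led by Hba-a1 (18206 ± 2975 SD, n = 3), Hba-a2 (16124 ± 2664), Hbb-bs (11253 ± 2384) and Hbb-bt (4281 ± 675), where Hba-a1 overlapped Hba-a2, and Hba-a2 overlapped Hbb-bs, within 1 SD of each mean. Car2 followed at 2325 ± 220, then Nfe2 at 817 ± 266, Aqp1 at 527 ± 250, Alas2 at 320 ± 61.4, Slc25a37 at 304 ± 50.2 and Tal1 at 262 ± 118. From Nfe2 to Tal1 no gene differed from its neighbour in this order beyond the spread. Kel (17.5 ± 2.43), Epb42 (11.3 ± 2.67), Ank1 (8.90 ± 1.93) and Tspo2 (7.49 ± 2.19) had the lowest levels in this order. In untreated BMDM the order began with Slc25a37 (185 ± 7.38, n = 2), Tal1 (152 ± 1.49), Bpgm (81.5 ± 5.73), Tmcc2 (73.8 ± 2.02) and Car2 (55.8 ± 16.1), and Hba-a1 came sixth at 26.4 ± 4.02. The globin copies share reads, so their own order is uncertain.

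Promoter sequences were found for 21 of the 30 members in the RefSeq table (GRCm38.p6), which gives 250 bases before each start. Both strands were searched for 4 short motifs. The GATA core AGATAA was in the promoters of 9 of 21 members (42.9%) and of 11.4% of all 27025 genes with a promoter there. CCNCNCCC, the core bound by KLF1 and its relatives, was in 12 members (57.1%) and 48.5% of all genes, and its matches can overlap one another in runs of C. TGANTCA, the core shared by NF-E2 and AP-1, was in 2 members (9.5%) and 7.82% of all genes, and TATAAA in 5 members (23.8%) and 14.3% of all genes. Hba-a1, Hba-a2, Klf1 and Rhag had none of the motifs in this window. A match describes letters and is not a bound site. The stretches are shown for 8 members that carry a match within 130 bases of the start, to set the letters beside their values, with the matched letters in capitals (TTATCT is AGATAA on the other strand) and annotated exon bases left out, except in the 30 bases around the CCNCNCCC match of Hbb-bs.
Hbb-bs, chr7:103828003-103828032, minus strand: attccgtagagCCACACCCtggtaagggcc
Hbb-bt, chr7:103814012-103814041, minus strand: catctctgaagCCTCACCCtgcagggtaac
Epor, chr9:21963577-21963706, minus strand: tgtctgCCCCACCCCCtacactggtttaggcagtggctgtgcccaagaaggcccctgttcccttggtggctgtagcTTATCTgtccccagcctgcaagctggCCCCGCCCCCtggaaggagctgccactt
Gata1, chrX:7967911-7968040, minus strand: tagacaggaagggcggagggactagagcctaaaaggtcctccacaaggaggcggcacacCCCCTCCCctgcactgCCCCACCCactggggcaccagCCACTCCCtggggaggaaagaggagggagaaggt
Alas2, chrX:150547287-150547374, plus strand: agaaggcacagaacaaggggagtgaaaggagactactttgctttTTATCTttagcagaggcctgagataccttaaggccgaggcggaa
Kel, chr6:41704340-41704455, minus strand: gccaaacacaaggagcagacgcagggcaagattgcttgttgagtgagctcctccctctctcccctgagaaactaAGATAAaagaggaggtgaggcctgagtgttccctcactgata
Rhd, chr4:134864406-134864535, plus strand: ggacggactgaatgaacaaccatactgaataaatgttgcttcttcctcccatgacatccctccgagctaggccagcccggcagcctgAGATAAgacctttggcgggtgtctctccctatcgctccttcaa
Trim10, chr17:36869444-36869573, plus strand: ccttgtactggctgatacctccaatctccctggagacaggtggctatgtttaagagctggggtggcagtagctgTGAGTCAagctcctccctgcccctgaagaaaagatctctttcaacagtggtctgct
The beta globin matches lay 93 to 86 bases before the Hbb-bs start and 107 to 100 bases before that of Hbb-bt, whose promoter also held TATAAA, and the GATA cores of Epor, Kel and Rhd began 54, 56 and 43 bases before the start. Starts are those of RefSeq, and the Hbb-bs and Gata1 stretches lie inside the longer gene intervals of GENCODE. Of the genes just named, Epor, Rhd and Hbb-bs were read in every BMDM library, and Kel and Hbb-bt were at the floor in all 4.

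Within the resident libraries the erythroid genes did not vary as 1 block. In untreated cells the coefficient of variation ran from 4.3% for Bpgm to 47.7% for Gata1, with 16.3% for Hba-a1, 19.2% for Alas2 and 13.4% for Slc4a1. Replicate 1 of both resident groups had the lowest value of 9 members: Klf1, Gata1, Nfe2, Tal1, Epor, Sptb, Aqp1, Car1 and Hemgn. For 5 of them, Gata1, Tal1, Epor, Sptb and Aqp1, it was under 0.6 of the mean of the other replicates in both treatments. Gata1 stood at 0.440 of that mean untreated and 0.557 with LPS, Tal1 at 0.459 and 0.526, and Aqp1 at 0.433 and 0.539. The globins went a different way, with Hbb-bs at 0.817 untreated and 1.37 with LPS, and Epb42 (1.27 and 2.16), Tmcc2 (1.25 and 2.02) and Trim10 (1.20 and 2.47) were above the mean of the other replicates in both. LPS-treated replicate 1 held the highest value of 14 members, among them the globin columns, Alas2 and Slc4a1. The summed megakaryocyte and platelet markers stood at 0.369 and 0.459 in these libraries, and the macrophage sum at 1.46 and 1.21. The other marker sums were low there as well, at 0.457 to 0.602 untreated and 0.700 to 0.890 with LPS for neutrophil, B lineage, T and NK, eosinophil, basophil and mast, and progenitor genes. Gata1, Tal1 and Nfe2 are also factors of megakaryocytes, which share a progenitor with red cells. The part of megakaryocyte or other marrow cell transcripts in the spread of these genes was not tested.

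**Figure D3:**
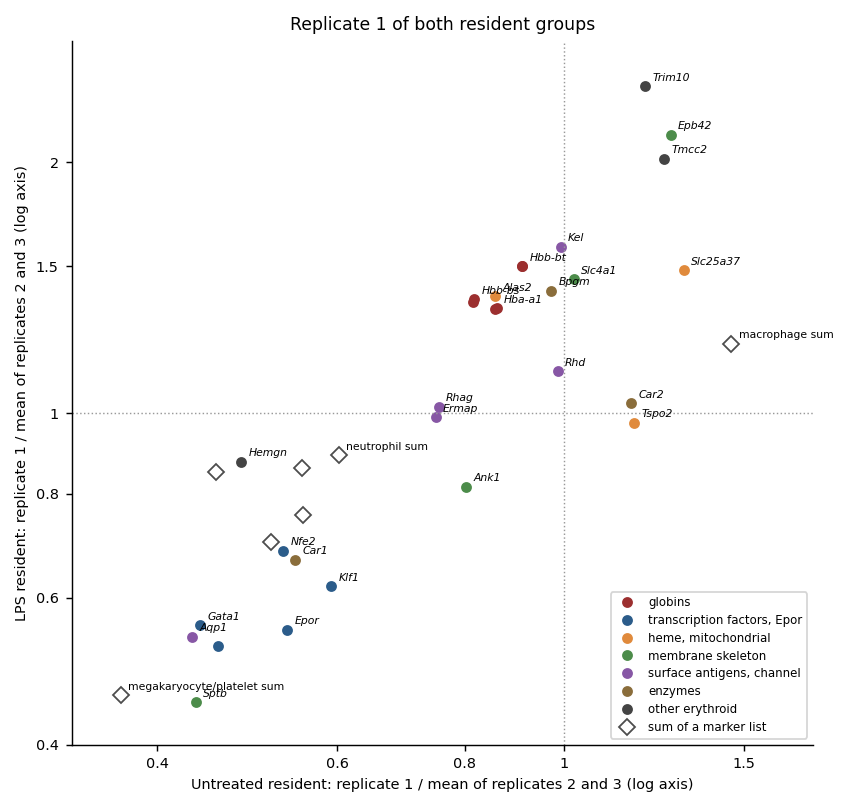
Value in replicate 1 divided by the mean of replicates 2 and 3, in untreated (horizontal) and LPS-treated (vertical) resident cells, both on log axes, for each erythroid gene (coloured by role) and for the sums of 7 marker lists (open diamonds); near-coincident points share 1 label. Sptb, Gata1, Aqp1 and Tal1, the unlabelled blue point beside them, lie at the lower left near the megakaryocyte and platelet sum, while globins, Alas2 and Slc4a1 lie at 0.815 to 1.02 untreated and above 1 with LPS.

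LPS changed 1 of the 29 members in resident cells, where 7.36% of all genes rose and 5.57% fell. Car2 rose from 5632 ± 533 to 7810 ± 312 (SD, n = 3 each), a log2 difference of 0.48 ± 0.13 SE at an adjusted p of 0.0432 (limma), and the groups did not overlap. The call was lost when any of 5 resident libraries was left out, untreated replicate 1 excepted, with an adjusted p of up to 0.124, and without either LPS-treated BMDM library (0.0733 and 0.0731), which changes the pooled spread but not the value. It was also lost with equal library totals and with quantile normalization. Without both replicate 1 libraries it held at 0.53 ± 0.16 (adjusted p = 0.0407, limma). No member fell. At an unadjusted p under 0.05 (limma) there were 2 members higher and 0 lower. The share of all genes at that level was not counted, so this count is not a result about the members. Slc25a37 had 1830 ± 302 untreated and 2635 ± 638 with LPS (0.51 ± 0.16, adjusted p = 0.0599), and without both replicate 1 libraries its difference was 0.45 ± 0.06 at an adjusted p of 0.00209 (limma).

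None of the other members was called. As for Car2, the groups of Slc25a37 (at most 2173 untreated, at least 2208 with LPS) and Tspo2 (at most 29.5, at least 31.1) did not overlap. The share of all genes whose groups part in this way was not counted, so nothing is drawn from it for the members. The 6 globin columns had log2 differences of 0.13 to 0.28, such as 0.13 ± 0.15 for Hba-a1 (adjusted p = 0.652) and 0.25 ± 0.21 for Hbb-bs (adjusted p = 0.51, limma). Epor had the most negative value, with means of 345 ± 118 and 246 ± 92.2 (-0.49 ± 0.34, adjusted p = 0.4, limma), and its LPS-treated libraries overlapped the untreated ones. By replicate number, each LPS-treated Epor value was below the untreated one (218, 453 and 362 untreated, 159, 342 and 236 with LPS). The fit did not pair the libraries. In all, 27 of 29 members had a value above 0, with a member median of 0.20 beside 0.00 over all genes, and LPS-treated replicate 1 was the highest library for 14 members. Without both replicate 1 libraries 20 of 29 were above 0, with a median of 0.04. With equal library totals, which moved the median of all genes to -0.12, 22 were.

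In BMDM, LPS raised 2 members and lowered 8 in the fit of all libraries, where 28.3% of all genes rose and 29.5% fell. Of the 8, Hbb-bs, Hbb-b1, Klf1 and Alas2 reached the level needed for testing only through the resident libraries. A fit of the BMDM libraries alone leaves them out, so the count of 8 rests in part on genes with few BMDM reads. Car2 rose from 135 ± 39.0 to 1614 ± 78.4 (SD, n = 2 each), by 3.60 ± 0.16 SE on the log2 scale (adjusted p = 2.36e-08, limma), and Slc25a37 from 1112 ± 44.4 to 3775 ± 3.08, by 1.76 ± 0.19 (adjusted p = 2.28e-05). For neither gene did the libraries of the 2 groups overlap, and Car2 had the larger change of the pair. Of the genes that fell, Bpgm went from 293 ± 20.6 to 148 ± 8.49 (-0.98 ± 0.17, adjusted p = 0.000557) and Tmcc2 from 420 ± 11.5 to 174 ± 22.1 (-1.27 ± 0.29, adjusted p = 0.00379, limma). Both kept their call in all 19 other settings that were run.

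The other 6 genes that fell had low BMDM values, and all 6 lost their call with a pseudocount of 10 and with voom on recovered reads. Epor had 26.0 ± 5.76 untreated and 8.53 ± 2.48 with LPS (-1.51 ± 0.41, adjusted p = 0.00969). It did not pass once replicate 1 of the untreated cells (adjusted p = 0.0691) or replicate 2 of the LPS-treated cells (0.0746) was removed. Sptb had 38.3 ± 5.09 and 14.0 ± 0.60 (-1.39 ± 0.46, adjusted p = 0.0241), and did not pass with any 1 of the 4 BMDM libraries removed (adjusted p of 0.0593 to 0.11, limma). It did pass without both resident replicate 1 libraries, where the pooled spread was smaller (adjusted p = 6.5e-05). Hbb-bs was read 11 times in untreated and 2 times in LPS-treated BMDM, a ratio of 0.233 with an exact 95% counting interval of 0.0251 to 1.07. Klf1 was read 8 times and 1 time (0.16, interval 0.00361 to 1.19), and Alas2 7 times and 1 time (0.183, interval 0.00406 to 1.42). These 3 passed the test on log values at adjusted p = 0.0008, 0.0463 and 0.0052 (limma), while their counting intervals include no change. Klf1 did not pass in 7 of the 10 fits with a library removed, with an adjusted p of up to 0.244. The last of the 8, Hbb-b1, was read 18 and 4 times and may share its reads with Hbb-bs. Hba-a1 (0.08 ± 0.19) and Hba-a2 (0.16 ± 0.18) did not pass the test, at adjusted p = 0.744 and 0.488. The member median of 0.00 (-0.04 over all genes) carries no information on a response, since it falls on members at the floor in all 4 BMDM libraries, whose difference is 0 by construction.

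**Figure D4:**
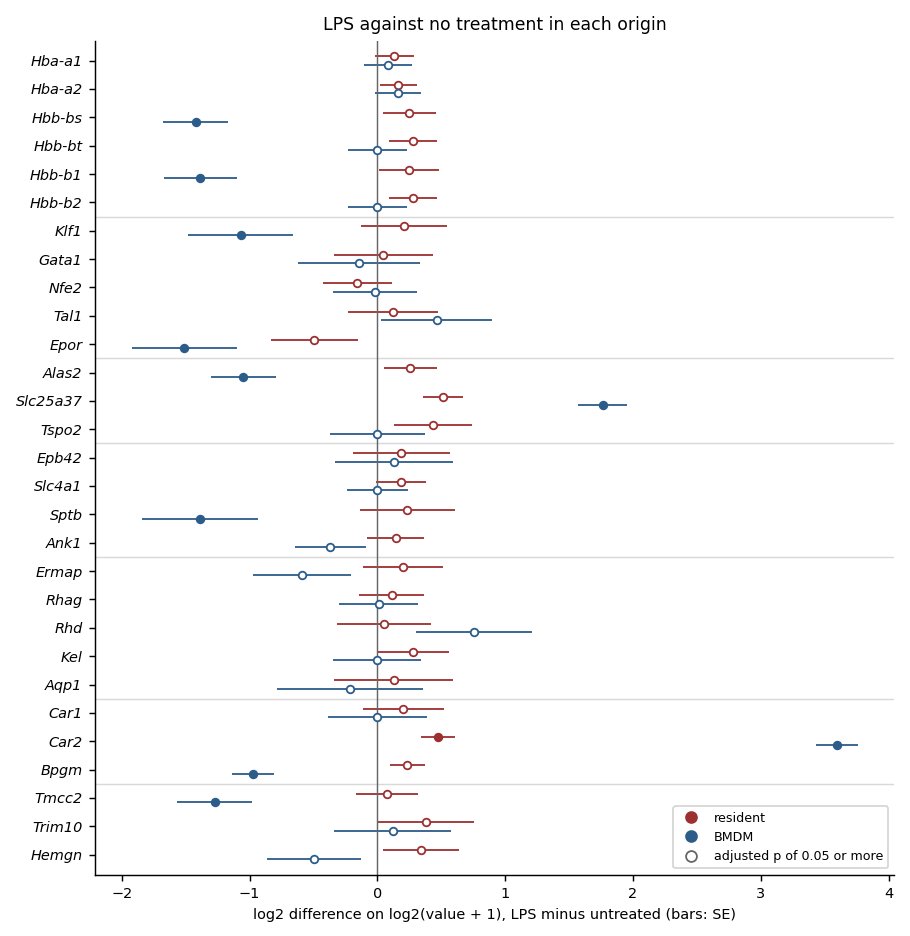
Fitted log2 difference, LPS minus untreated, of each erythroid gene on the log2(value + 1) scale in resident cells and in BMDM, with bars for the standard error; filled points passed an adjusted p of 0.05 (limma). Car2 lies at 0.48 in resident cells and at 3.60 in BMDM, and most resident points lie between 0 and 0.5.

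The LPS responses of the 2 origins were compared in the same fit, and 8 members differed, 6 with a higher and 2 with a lower response in resident cells, where 19.0% and 22.8% of all genes did. Car2 (-3.12 ± 0.21, adjusted p = 1.16e-06) and Slc25a37 (-1.25 ± 0.25, adjusted p = 0.0025) had a more positive response in BMDM. Bpgm (1.21 ± 0.21, adjusted p = 0.00123, limma) fell in BMDM with no called change in resident cells. Tmcc2 (1.35 ± 0.38, adjusted p = 0.0164) and Sptb (1.62 ± 0.59, adjusted p = 0.0492) had the same pattern. The Sptb difference did not pass in 12 of 18 alternatives and that of Tmcc2 in 4. Without both replicate 1 libraries both passed, at 1.61 ± 0.24 for Sptb (adjusted p = 0.000443) and 1.12 ± 0.15 for Tmcc2 (adjusted p = 0.000211, limma). Hbb-bs (1.67 ± 0.33), its partner column Hbb-b1 (1.63 ± 0.37) and Alas2 (1.31 ± 0.33) rest on the few BMDM reads given above.

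Other genes of the red cell program, in 4 lists, were also tested; this set was chosen by function with earlier results known. Of 49 genes in the table, 26 were higher and 12 lower in untreated resident cells, with a median of 0.60, where 39.2% of all genes were higher and 32.6% lower. The 12 membrane genes went the way of the members, with 10 higher and 1 lower. Add2, an adducin gene, was 5.55 ± 0.35 higher (adjusted p = 2.65e-07, limma). Of 12 regulators 8 were higher and 1 lower, led by Myb (5.94 ± 0.42), a factor of blood progenitors, Gfi1b (4.79 ± 0.44), a repressor of red cell and platelet precursors, and Sox6 (3.68 ± 0.34). Of 14 enzyme and maturation genes 10 were in the table, of which 5 were higher and 2 lower. The theta globin gene Hbq1b (mean 14.2 in untreated resident cells) and the pyruvate kinase gene Pklr (mean 10.7) were at the floor in untreated BMDM.

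Most heme and iron genes did not share the direction of Alas2. Of 15 tested, 3 were higher and 8 lower in untreated resident cells, with a median of -0.59. Steap3, a ferrireductase gene, and Fam210b were lower (log2 differences of -3.77 ± 0.25 and -1.48 ± 0.16), and the iron transporter gene Slc11a2 was 1.64 ± 0.17 higher. Among the enzymes that follow ALAS2 in the pathway, named here after their values were seen, Alad (-0.72 ± 0.15), Uros (-0.59 ± 0.14), Urod (-0.85 ± 0.13) and Fech (-1.11 ± 0.11) were lower, and Cpox and Ppox were not called. With LPS, where 36.7% of all genes were higher and 34.5% lower, 6 of the 15 were higher and 5 lower in resident cells, led by Steap3 (-2.70 ± 0.25), the glycine carrier gene Slc25a38 (1.21 ± 0.13) and Fam210b (-0.88 ± 0.16). Of the regulators 11 were higher and 1 lower with LPS, led by Myb (6.38 ± 0.42), Gfi1b (5.04 ± 0.44) and E2f2 (4.75 ± 0.27), a cell cycle factor gene. Of the membrane genes 7 were higher and 2 lower, with Add2 and the claudin gene Cldn13 at the floor in LPS-treated BMDM. Of the maturation genes 6 were higher and 3 lower, among them the low genes Pklr and Hbq1b on the higher side.

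With LPS in BMDM, 10 of the 49 genes rose and 21 fell, where 28.3% of all genes rose and 29.5% fell. The glycophorin C gene Gypc (3.73 ± 0.26) rose and the protein 4.1 gene Epb41 (-1.78 ± 0.14) fell. E2f2 (-4.37 ± 0.30), Lyl1 (-4.22 ± 0.34), a relative of Tal1, and Foxo3 (-1.97 ± 0.13) fell. Steap3 (-1.94 ± 0.28) fell and Slc11a2 (1.79 ± 0.19) rose, as did its fellow iron carrier gene Slc25a37 among the members. Of the maturation genes, the catalase gene Cat (-0.84 ± 0.23), Xpo7 (-0.64 ± 0.15) and Bnip3l (-0.53 ± 0.09) fell. In resident cells, where 7.36% of all genes rose and 5.57% fell, 1 of the 49 rose and 8 fell, among the latter Steap3 (-0.87 ± 0.23), Abcb6 (-0.52 ± 0.11), Ldb1 (-0.43 ± 0.12), Cat (-0.76 ± 0.19), Prdx2 (-0.45 ± 0.07) and Blvrb (-0.42 ± 0.11). The response differed between origins for 18 of the 49, 11 higher and 7 lower in resident cells, where 19.0% and 22.8% of all genes did. These counts lie near or below those shares. E2f2 (4.15 ± 0.38), Lyl1 (3.73 ± 0.44) and Gypc (-3.26 ± 0.34) had the differences furthest apart among the genes named. Foxo3 (1.73 ± 0.17), Epb41 (1.61 ± 0.18), Alad (1.11 ± 0.21), Slc11a2 (-1.83 ± 0.24) and Prdx2 (-0.74 ± 0.11) lay between them.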

How the data were processed

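RNA-seq of 10 mouse libraries was analysed from 1 table of 13809 genes. Per the submitters' processing notes, reads were aligned with HISAT 0.1.7 to mm10. For the counting program and annotation, the sources used here give no name. The authors deposited normalised signal values, with a floor of 1. In each library, values of genes with up to 1000 reads were whole multiples of 1 step within 0.02, for 100% of them, so each value is a read number divided by 1 factor per library.

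From these values limma 3.58.1 (R 4.3.3) was fitted with a variance trend on log2(value + 1), a pseudocount of 1, over the 4 groups and all 10 libraries (6 residual degrees of freedom), for the 13755 genes that reached 10 in 2 libraries. Fold changes on this scale understate the change of low genes. P-values are 2-sided, adjusted over all these genes by Benjamini-Hochberg for each of 5 comparisons, and called at under 0.05. With 2 or 3 libraries a group, 1 pooled spread is assumed. Means carry the SD and fitted differences the SE. Counting intervals are exact (conditional binomial, 95%), cover counting error only, and count reads, not molecules. Folds against groups at the floor use 3 reads per library.

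The members and lists were chosen with earlier results of these data known, by known function. Every member is named, in the order of roles, and from each other list up to 3 called genes per comparison with the largest change, except that some of these are not reported here. Gene positions and lengths are from GENCODE vM21 (GRCm38, the files' build), promoters from RefSeq. Alternatives were pseudocounts of 0.1 and 10, no filter, recomputed median-ratio factors, equal totals, quantile normalization, only the groups compared, limma voom on recovered reads and each library left out. Leaving out both libraries with Y-linked transcripts was added after seeing the data. The fit was tested on simulated data.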

Additional observations from a re-analysis of the deposited data

Results flagged for a closer look

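The LPS response of 8 members differed between resident cells and BMDM by the test of the difference itself (limma, resident minus BMDM on the log2 scale). Of the 29 members 6 had a higher and 2 a lower response in resident cells, where 19.0% and 22.8% of all genes did. These counts lie near or below those shares. Car2 (-3.12) and Slc25a37 (-1.25) rose more in BMDM. Bpgm (1.21) and Tmcc2 (1.35) fell in BMDM and had no called change in resident cells. Sptb (1.62) had the same signs, at 13.5 to 41.9 in BMDM libraries. Hbb-bs (1.67), Hbb-b1 (1.63) and Alas2 (1.31) had at most 12 reads in any BMDM library. Hbb-bs and Hbb-b1 may share reads and then count as 1 observation.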

How the results depend on the processing

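No called member reversed under any alternative. In untreated cells 28 of 28 members called between origins kept their call in all 19 alternatives, with LPS 27 of 28, and of the LPS responses 4 of 10 in BMDM, 0 of 1 in resident cells and 3 of 8 for the difference (18 alternatives). The count of 1 member that rose with LPS in resident cells was 0 with equal totals and 0 with quantile normalization, 0 to 2 with a library left out, and 2 when the pair of libraries with Y-linked transcripts was dropped (added after seeing the data). The 8 members that fell in BMDM were 2 with a pseudocount of 10, 2 with voom on recovered reads, 4 with only the groups compared, where the filter leaves out the other 4 (Hbb-bs, Hbb-b1, Klf1 and Alas2), and 5 to 8 with a library left out. The 1 member lower in resident than in BMDM cells with LPS was 0 with equal totals and 0 with quantile normalization, and 0 to 1 with a library left out. The 6 higher responses were 3 with a pseudocount of 10 and 1 with voom, and 4 to 7 with a library left out. The cause was not tested, except that a larger pseudocount shrinks differences between genes of few reads. Equal totals shifted the median of all genes in BMDM from -0.04 to -0.64 and the higher share of their calls from 49.0% to 21.6%; in resident cells the share went from 56.9% to 27.1%, between origins with LPS from 51.5% to 68.3%, and for the difference from 45.5% to 75.4%. Quantile normalization took the untreated share from 54.6% to 41.6% and that of the difference to 56.9%. With only the resident groups fitted, 645 genes changed with LPS in place of 1779. No paired analysis was run because the labels number the samples from 1 to 10 with no number shared between groups. Resident libraries of the same replicate number were alike across treatments in some values. Y-linked transcripts were in replicate 1 of both groups. The megakaryocyte and platelet sums were 14812, 47088 and 33178 untreated and 19254, 51200 and 32778 with LPS. Whether these libraries form pairs was not tested, and any spread that pairs share stays in the error of the fit. At this depth a member at the floor was read at most 1 time in a library.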
